A study of Zea mays with 6 samples.

Results

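Genes of the C4 cycle and of the Rubisco small subunit were followed in seedlings of maize, Zea mays, sampled at the coleoptile stage, in 3 Fdl1-/- and 3 wild-type RNA sequencing libraries. The list was set by gene ID and holds 8 genes: phosphoenolpyruvate carboxylase (PEPC), pyruvate orthophosphate dikinase (PPDK), NADP-malic enzyme (NADP-ME), NADP-malate dehydrogenase (NADP-MDH), carbonic anhydrase, phosphoenolpyruvate carboxykinase (PEPCK) and 2 loci of the Rubisco small subunit. Of these 8 genes, 7 had a row among the 45855 genes of the tables. NADP-ME, Zm00001d000316, had none and was not analysed here. Each name came with its ID in the list: the gene table used here, of assembly NAM-5.0, held 0 of the 8 IDs, so every gene name below rests on that list. Fdl1-/- seedlings carry a mutant FDL1 (fused leaves1), a MYB transcription factor gene known for its part in seedling cuticle formation. Both groups were whole seedlings of one labelled stage, and the labels used here give no lesion, genetic background, light regime or pooling of plants.

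In C4 photosynthesis, mesophyll cells fix carbon dioxide first, and bundle sheath cells release it again beside Rubisco. Carbonic anhydrase supplies bicarbonate, PEPC fixes it, NADP-MDH reduces the product to malate, and PPDK regenerates the acceptor of carbon. In the bundle sheath NADP-ME and PEPCK release the carbon dioxide, and Rubisco, of which the small subunit is encoded in the nucleus, fixes it in the Calvin cycle. Transcripts of these genes are known to accumulate as maize leaves green in the light. In RNA of whole seedlings, fewer cells of a type and less RNA per cell cannot be told apart.

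Library totals ran from 28660896 to 35793334 expected counts in Fdl1-/- and from 26807205 to 36123679 in wild type. In a library of these totals 3 counts, taken as the floor, equal 0.083 to 0.112 CPM (read counts scaled to a common library size). The gene taken for FDL1, Zm00001d022227, an ID recalled from published work that no table used here pairs with the name, had 3.95 ± 0.376 CPM in Fdl1-/- and 4.82 ± 0.816 CPM in wild type (SD, n = 3 each; edgeR adjusted p = 0.651), so its level alone did not separate the genotypes. Wild-type replicate 1 stood apart, with log-CPM correlations across genes of 0.938 and 0.949 with the other wild-type libraries, against 0.975 between the other two. Between Fdl1-/- libraries these correlations were 0.973 to 0.980. In Fdl1-/- replicate 3 the 7 genes stood highest among the mutant libraries. Fold changes, sums and ratios that moved most with either this library or wild-type replicate 1 are also given without the library concerned.

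PPDK was higher in the mutant seedlings, and it was the 1 gene of the 7 that passed the test across all genes. Every Fdl1-/- library lay above every wild-type library for PPDK and for carbonic anhydrase, and in CPM for 10.7% of all tested genes. PEPC and PEPCK had higher means in Fdl1-/- with groups that overlapped. The means of NADP-MDH and of both small subunit loci differed by less than the spread between replicates. All 7 genes passed the filter on low counts. Calls rest on quasi-likelihood tests in edgeR over all 26098 tested genes, at a threshold of 0.05 on the p adjusted by Benjamini-Hochberg. By that rule 1.68% of tested genes were called higher in Fdl1-/- and 2.68% were called in either direction. The median log2 fold change of the 7 genes was 1.47 and that of all tested genes -0.033. Of the 7 genes, 6 had a log2 fold change above 0, against 45.2% of all tested genes. Both values rested largely on Fdl1-/- replicate 3: without it the median of the 7 genes was 0.30, and 4 of the 7 genes, against 46.4% of all tested genes, were above 0. Without wild-type replicate 1 the median was 1.95, with 7 of 7 genes and 49.2% of all tested genes above 0. Without both libraries it was 0.54, with 6 of 7 genes and 50.0% of all tested genes above 0. At an unadjusted p under 0.05 stood 3 of the 7 genes and 15.8% of tested genes.

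**Figure D1:**
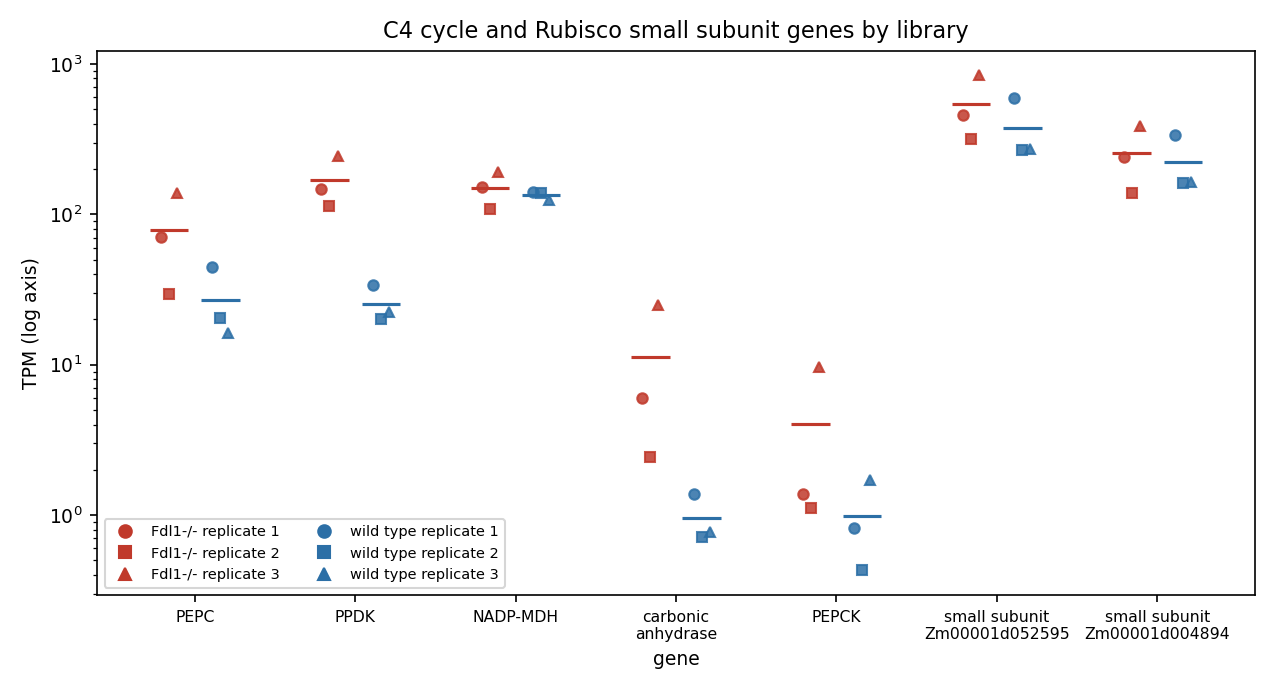
Expression in TPM (transcript counts per length and library, log axis) of the 7 genes in each library, with Fdl1-/- in red left of wild type in blue, marker shape giving the replicate and bars giving the group mean. PPDK and carbonic anhydrase do not overlap between genotypes, and Fdl1-/- replicate 3 is the highest mutant library for each gene. In CPM, 10.7% of all tested genes had every Fdl1-/- library above every wild-type library. Of all tested genes, 37.6% were highest in Fdl1-/- replicate 3 among the mutants.

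PPDK, Zm00001d038163, had 146.9, 112.9 and 244 TPM in Fdl1-/- replicates 1, 2 and 3, against 33.7, 20.1 and 22.5 TPM in wild-type replicates 1, 2 and 3. Its lowest mutant library was 3.35 times its highest wild-type library on the TPM scale and 2.53 times in CPM. The rank of PPDK moved with it, since 96.6% to 98.6% of genes had a lower TPM in the mutant libraries, against 80.7% to 88.2% in wild type. In normalised counts the gene averaged 286 ± 129 CPM in Fdl1-/- and 48.5 ± 19.6 CPM in wild type (SD, n = 3 each), from 6433 to 14651 expected counts in the mutant and 1259 to 1869 in wild type. In edgeR its log2 fold change of 2.56 (SE 0.40, 95% interval 1.62 to 3.50) had an adjusted p of 0.0259. This is a 5.90-fold difference, which stood at place 161 in size among the 439 genes called higher. The call is close to the threshold: without wild-type replicate 2 or 3 the adjusted p was 0.107 or 0.0517, without Fdl1-/- replicate 1 or 3 it was 0.0856 or 0.0629, and with a replicate block it was 0.0852, all in edgeR. Over the 18 alternatives run the log2 fold change lay between 2.14 and 2.94 and the adjusted p between 1.2e-10 and 0.107, and the fold change was 2.53 with an adjusted p of 0.0114 when Fdl1-/- replicate 3 and wild-type replicate 1 were both left out.

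The row that follows PPDK in the gene order of the tables, Zm00001d038164, had 9.68 ± 2.0 CPM in Fdl1-/- and 0.938 ± 1.17 CPM in wild type (SD, n = 3 each). It did not pass the test (log2 fold change 3.41, SE 0.84, edgeR adjusted p = 0.0903), and it was singled out after its values were seen. The other tested rows within 2 places of PPDK, Zm00001d038161 and Zm00001d038165, had log2 fold changes of -0.0073 and 0.50 and did not pass. Whether PPDK and its neighbour share reads was not tested.

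Carbonic anhydrase, Zm00001d044099, had 6.04, 2.42 and 25.1 TPM in Fdl1-/- replicates 1, 2 and 3, against 1.39, 0.72 and 0.77 TPM in wild-type replicates 1, 2 and 3. The groups did not overlap, and the mutant libraries spread over a 10.4-fold range while the wild-type libraries spread over a 1.93-fold range. Read numbers were small in wild type, at 23 to 33 expected counts a library, against 92 to 943 in Fdl1-/-. Whether this ID is the main C4 copy of carbonic anhydrase could not be checked here. The level averaged 12.2 ± 13.5 CPM in Fdl1-/- and 0.895 ± 0.314 CPM in wild type (SD, n = 3 each). With a log2 fold change of 3.78 (SE 0.89, 95% interval 1.69 to 5.87) this was the largest difference among the 7 genes, but the adjusted p of 0.0805 in edgeR missed the threshold. DESeq2 called the gene, with an adjusted p of 1.3e-05, beside 4.08% of tested genes called higher by that tool and 7.65% called in either direction. Without Fdl1-/- replicate 3 the log2 fold change was 2.33, with an edgeR adjusted p of 0.113, and over all alternatives the adjusted p was 1.3e-05 to 0.291. Non-overlap with Fdl1-/- on top held for 2 of the 7 genes in CPM, PPDK and carbonic anhydrase, and for 10.7% of all tested genes, while groups that did not overlap in either direction made up 21.9%.

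PEPC, Zm00001d046170, had 70.3, 29.4 and 137.7 TPM in Fdl1-/- replicates 1, 2 and 3, against 44.5, 20.6 and 16.1 TPM in wild-type replicates 1, 2 and 3. The groups overlapped, since wild-type replicate 1 lay above Fdl1-/- replicate 2. Normalised counts averaged 186 ± 127 CPM in Fdl1-/- and 67.0 ± 41.9 CPM in wild type (SD, n = 3 each). The difference did not pass the test (log2 fold change 1.47, SE 0.61, 95% interval 0.033 to 2.91, edgeR adjusted p = 0.304). The estimate depended on the libraries that stood apart, at 0.82 without Fdl1-/- replicate 3 and 2.11 without wild-type replicate 1. Without both it was 1.45 (edgeR adjusted p = 0.158, and 0.138 to 0.657 over all alternatives).

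NADP-MDH, Zm00001d031899, was the steadiest of the set. Fdl1-/- replicates 1, 2 and 3 had 151.4, 108.2 and 191.8 TPM, and wild-type replicates 1, 2 and 3 had 140.7, 139.1 and 124.0 TPM, so that the wild-type libraries all lay inside the mutant range. The fitted log2 fold change, -0.037 (SE 0.26, 95% interval -0.65 to 0.58, edgeR adjusted p = 0.971), changed its sign with the scale: counts gave 131 ± 38.7 CPM in Fdl1-/- and 134 ± 35.6 CPM in wild type, while TPM gave 150 ± 41.8 in Fdl1-/- and 135 ± 9.21 in wild type (SD, n = 3 each). The mean transcript length that RSEM assigned to this gene differed in 1 library. It was 1204, 1218 and 1276 nt in Fdl1-/- replicates 1, 2 and 3, and 1594, 1233 and 1248 nt in wild-type replicates 1, 2 and 3. Since TPM divides by that length, wild-type replicate 1 was the highest library for the gene in CPM, at 174 CPM, but not in TPM.

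PEPCK, Zm00001d028471, was low in all libraries but 1. It had 1.39, 1.12 and 9.61 TPM in Fdl1-/- replicates 1, 2 and 3, against 0.82, 0.43 and 1.71 TPM in wild-type replicates 1, 2 and 3. Fdl1-/- replicate 3 alone stood apart, with 512 expected counts where the other 5 libraries had 25 to 84. The fitted log2 fold change of 2.05 (SE 0.93, 95% interval -0.14 to 4.23, edgeR adjusted p = 0.354) rested on it, and was 0.30 without that library.

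The small subunit locus Zm00001d052595 was the most abundant gene of the set in every library. Its level was 457, 318 and 837 TPM in Fdl1-/- replicates 1, 2 and 3, and 590, 266 and 272 TPM in wild-type replicates 1, 2 and 3. The second locus, Zm00001d004894, had 240.02, 139.3 and 387 TPM in Fdl1-/- replicates 1, 2 and 3, and 338, 162 and 164 TPM in wild-type replicates 1, 2 and 3. At both loci the groups overlapped, with Fdl1-/- replicate 3 highest and wild-type replicate 1 next. Log2 fold changes were 0.45 (SE 0.46, 95% interval -0.63 to 1.52, edgeR adjusted p = 0.739) and 0.14 (SE 0.44, 95% interval -0.90 to 1.19, edgeR adjusted p = 0.930) for the first and second locus. Small subunit genes are near-identical copies, so that the split of reads between them is an estimate, and counts of both loci were therefore also added before testing. For the sum the log2 fold change came to 0.34 (SE 0.45, 95% interval -0.72 to 1.41, edgeR adjusted p = 0.812), and an interval this wide leaves room for a fold of 0.606 to 2.66. Without Fdl1-/- replicate 3 the sign turned, to -0.10, and without wild-type replicate 1 the value was 0.88.

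**Figure D2:**
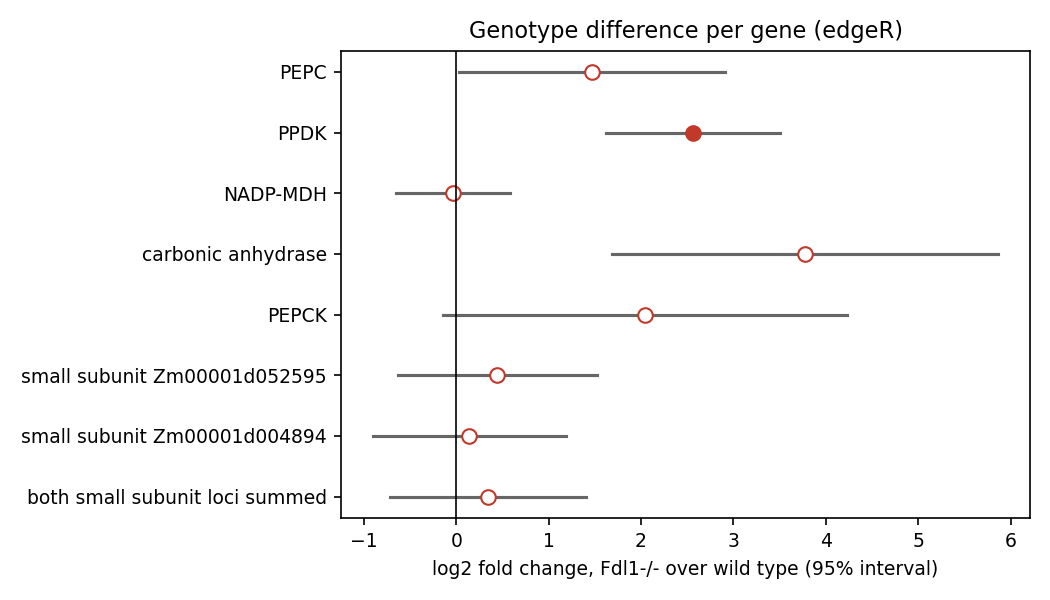
Log2 fold change of each gene, Fdl1-/- over wild type, with 95% intervals from edgeR. The filled point, PPDK at 2.56, passed an adjusted p under 0.05, open points did not, and the last line adds the counts of both small subunit loci.

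The order of levels, on the TPM scale that allows for transcript length, was headed in both genotypes by the small subunit loci. In Fdl1-/- they were followed by PPDK (168 ± 68.1 TPM), NADP-MDH (150 ± 41.8 TPM), PEPC (79.2 ± 54.7 TPM), carbonic anhydrase (11.2 ± 12.2 TPM) and PEPCK (4.04 ± 4.83 TPM; SD, n = 3 for each). The ranges of all neighbours in that order overlapped except those of PEPC and carbonic anhydrase. In wild type the small subunit loci were followed by NADP-MDH (135 ± 9.21 TPM), PEPC (27.1 ± 15.3 TPM), PPDK (25.4 ± 7.27 TPM), PEPCK (0.987 ± 0.656 TPM) and carbonic anhydrase (0.960 ± 0.373 TPM; SD, n = 3 for each). There the neighbours that overlapped were the small subunit loci with each other, PEPC with PPDK, and PEPCK with carbonic anhydrase. The range of PPDK thus overlapped that of PEPC in wild type and that of NADP-MDH in Fdl1-/-.

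Spread within a genotype was wide for the set and ran in one direction through most of its genes. Each library was compared with the mean of the other 2 of its group in log2 CPM. Fdl1-/- replicate 3 lay above both other mutant libraries for 7 of 7 genes, with a median difference of 1.11 and a range of 0.64 to 2.97. Fdl1-/- replicate 2 lay below both others for 7 of 7 genes, with a median of -1.11, and Fdl1-/- replicate 1 lay between them for every gene. Among wild-type libraries, replicate 1 was above both others for 6 of 7 genes, with a median of 0.94 and PEPCK as the exception at -0.059. Wild-type replicates 2 and 3 had medians of -0.51 and -0.46. Over all tested genes the median of this difference was between -0.029 and 0.0087 in every library. Of all tested genes, 37.6% were highest in Fdl1-/- replicate 3 among the mutants, 32.1% were lowest in Fdl1-/- replicate 2 and 40.7% were highest in wild-type replicate 1 among the wild types.

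**Figure D3:**
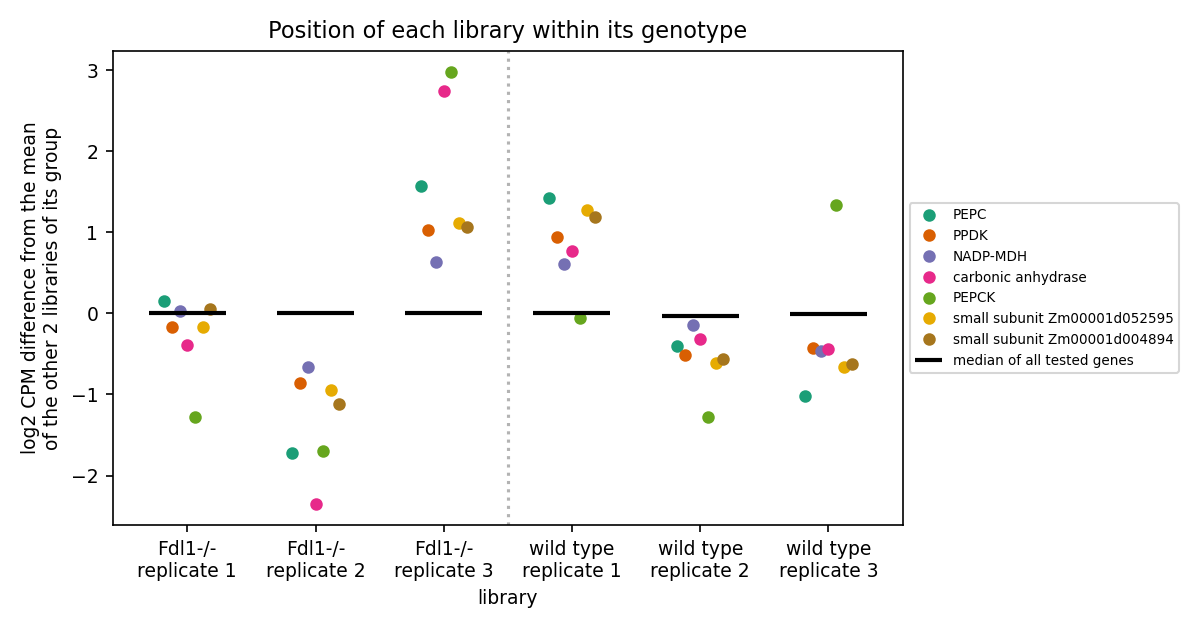
Difference in log2 CPM of each library from the mean of the other 2 libraries of its genotype, with 1 point per gene and a black bar for the median of all tested genes, Fdl1-/- libraries on the left. All 7 genes are above 0 in Fdl1-/- replicate 3 and below 0 in Fdl1-/- replicate 2, and 6 of 7 are above 0 in wild-type replicate 1.

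The range between the highest and the lowest library had a median over the 7 genes of 1.45 log2 CPM in Fdl1-/- and 1.21 in wild type, against medians over all tested genes of 0.34 in Fdl1-/- and 0.52 in wild type. For 7 of the 7 genes the range was larger in Fdl1-/- than in wild type, which held for 29.0% of all tested genes. That count also rested on Fdl1-/- replicate 3. Without it, with 2 mutant libraries set against 3 wild-type ones, the mutant range was the larger for 1 of the 7 genes and for 13.8% of all tested genes. The share of all tested genes moved with wild-type replicate 1. Without that library alone, the mutant range was the larger for 7 of the 7 genes and for 63.2% of all tested genes. Without both Fdl1-/- replicate 3 and wild-type replicate 1 it was the larger for 6 of the 7 genes and for 39.3% of all tested genes, and the median range of the 7 genes was 0.52 log2 CPM in Fdl1-/- and 0.082 in wild type. Carbonic anhydrase and PEPCK had the widest mutant ranges, 3.39 and 3.11 log2 CPM, wider than in 99.5% and 99.3% of tested genes. NADP-MDH had the narrowest of the set, 0.87 in Fdl1-/- and 0.72 in wild type. The biological coefficient of variation fitted by edgeR was 23.9% for NADP-MDH, 32.9% for PPDK, 38.1% and 39.0% for the small subunit loci, 50.2% for PEPC, 65.3% for carbonic anhydrase and 73.6% for PEPCK, where the median of all tested genes was 23.0%.

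Added together, the 7 genes held 1074, 711 and 1833 TPM in Fdl1-/- replicates 1, 2 and 3, against 1149, 609 and 601 TPM in wild-type replicates 1, 2 and 3. The sums overlapped: wild-type replicate 1 exceeded Fdl1-/- replicates 1 and 2. The mean was 1206 ± 572 TPM in Fdl1-/- and 786 ± 314 TPM in wild type (SD, n = 3 each), a ratio of 1.53 that was 1.13 without Fdl1-/- replicate 3 and 1.99 without wild-type replicate 1. The small subunit loci made up 65.3% ± 1.32 of the sum in Fdl1-/- and 74.5% ± 5.51 in wild type (SD, n = 3 each). Without them, the 5 other genes held 376, 254 and 608 TPM in Fdl1-/- replicates 1, 2 and 3, against 221, 181 and 165 TPM in wild-type replicates 1, 2 and 3. These sums did not overlap, but that rested on PPDK, and with PPDK taken out they overlapped. PPDK averaged 168 TPM of a 5-gene mean of 413 TPM in Fdl1-/-, and 25.4 TPM of 189 TPM in wild type. No test was run on a sum over the genes. The means of the 5-gene sums gave a ratio of 2.18, which was 1.67 without Fdl1-/- replicate 3 and 2.39 without wild-type replicate 1. With 1 library left out it was highest, 2.60, without Fdl1-/- replicate 2.

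Ratios between genes of one library do not depend on how the libraries are scaled, but in TPM they depend on the transcript lengths that RSEM assigned. Summed TPM of the mesophyll genes PEPC, PPDK, NADP-MDH and carbonic anhydrase was set against that of PEPCK and the small subunit loci of the bundle sheath, with NADP-ME missing from the second sum. The ratio was 0.536, 0.552 and 0.485 in Fdl1-/- replicates 1, 2 and 3, against 0.237, 0.421 and 0.373 in wild-type replicates 1, 2 and 3. The libraries of the genotypes did not overlap, although Fdl1-/- replicates 2 and 3 differed 2.58-fold in the summed level of the set. That separation rested on PPDK, the gene called by edgeR. PPDK averaged 168 TPM of an upper sum of 409 TPM in Fdl1-/-, and 25.4 TPM of 188 TPM in wild type. With PPDK taken out of the upper sum, the ratios of the genotypes overlapped. The mean ratio in Fdl1-/- was 1.52 times that in wild type, 1.32 times without wild-type replicate 1, the lowest library, and 1.58 times without Fdl1-/- replicate 3. With 1 library left out it was highest, 1.72 times, without wild-type replicate 2. Small subunit transcripts make up nearly all of the lower sum, and with PEPCK alone in it the log2 ratio between genotypes was -0.49 in place of 0.61. With all genes kept and CPM used in place of TPM, that log2 ratio was 0.86.

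PPDK relative to PEPC, a ratio chosen after the values were seen, was 2.09, 3.83 and 1.77 in TPM in Fdl1-/- replicates 1, 2 and 3, against 0.757, 0.978 and 1.40 in wild-type replicates 1, 2 and 3. Here too the groups did not overlap, and the mean in Fdl1-/- was 2.46 times that in wild type. With 1 library left out this was lowest, 1.85 times, without Fdl1-/- replicate 2. It was highest, 2.96 times, without wild-type replicate 3. It was 2.84 times without Fdl1-/- replicate 3 and 2.16 times without wild-type replicate 1. The highest ratio was in Fdl1-/- replicate 2, the mutant library with the least of both transcripts. The upper term of this ratio, PPDK, did not overlap between genotypes by itself. Zm00001d004894 made up 34.4%, 30.5% and 31.6% of the TPM of both small subunit loci in Fdl1-/- replicates 1, 2 and 3, against 36.4%, 37.8% and 37.6% in wild-type replicates 1, 2 and 3. That share averaged 32.2% ± 2.02 in Fdl1-/- and 37.3% ± 0.763 in wild type (SD, n = 3 each), and it carries the uncertainty of the division of shared reads.

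**Figure D4:**
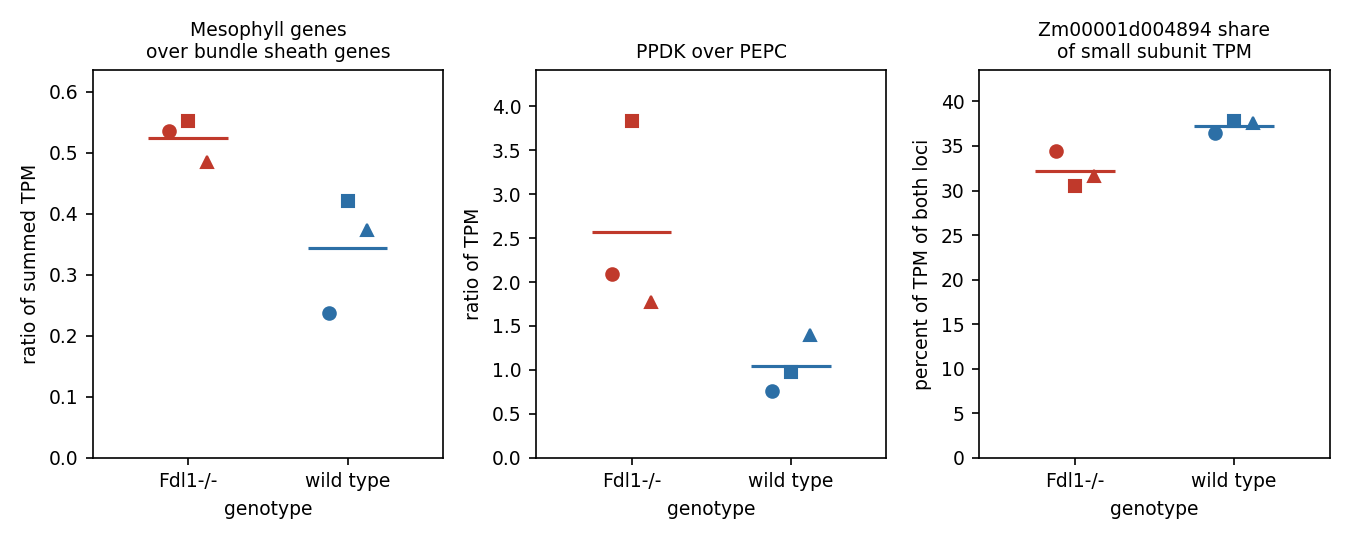
Summed TPM of mesophyll genes over bundle sheath genes, TPM of PPDK over PEPC, and the percent of Zm00001d004894 in the TPM of both small subunit loci, by library, with bars for group means and Fdl1-/- left of wild type. In each panel the 3 libraries of one genotype lie on one side of the 3 of the other, with means of 0.524 in Fdl1-/- and 0.344 in wild type for the first ratio. PPDK, which did not overlap between genotypes by itself, is part of the upper sum in the first panel, and without PPDK the genotypes overlapped there. PPDK is also the upper term of the second ratio, which was chosen after the values were seen. Among single tested genes, groups did not overlap in CPM for 21.9%.

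Transcript length, a measure that the test of expression does not use, could vary for the 4 genes with more than 1 annotated transcript: PPDK with 36, PEPCK with 6, carbonic anhydrase with 5 and NADP-MDH with 3. RSEM gives it as a mean weighted by the estimated share of each transcript. For carbonic anhydrase the length was 1497, 1482 and 1566 nt in Fdl1-/- replicates 1, 2 and 3, against 1195, 1436 and 1310 nt in wild-type replicates 1, 2 and 3. The groups did not overlap, and a two-sided exact permutation test gave p = 0.1, which is as low as 3 against 3 libraries can go, and 0.4 after adjustment over the 4 genes. The wild-type lengths of this gene rest on at most 33 expected counts a library. PPDK averaged 2342 ± 134 nt in Fdl1-/- and 2524 ± 140 nt in wild type (SD, n = 3 each, exact permutation p = 0.2). For NADP-MDH and PEPCK the exact permutation p was 0.4 and 0.8.

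Few of the genes around the 7 loci could be tested. Of the 28 rows within 2 places of the 7 genes in the gene order of the tables, 10 were tested, 0 were called higher and 1 was called lower in edgeR. The 1 that passed, Zm00001d044101 beside carbonic anhydrase, had 32.5 ± 0.860 CPM in Fdl1-/- and 59.0 ± 9.71 CPM in wild type (SD, n = 3 each), with a log2 fold change of -0.86 (SE 0.14, edgeR adjusted p = 0.0284). It was named after its values were seen.

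The genes most like the set across libraries were sought by Pearson correlation of log-CPM with the mean standardised profile of the 7 genes, among 13995 other genes of at least 10 CPM on average. Zm00001d025860 came first, at 0.996 over 6 libraries, with 31.0, 26.0 and 41.9 CPM in Fdl1-/- replicates 1, 2 and 3, against 32.4, 23.6 and 23.6 CPM in wild-type replicates 1, 2 and 3. The next was Zm00001d005996, at 0.991, with 17.5, 10.4 and 36.8 CPM in Fdl1-/- replicates 1, 2 and 3, against 14.6, 6.32 and 6.95 CPM in wild-type replicates 1, 2 and 3. Neither passed the test between genotypes, with edgeR adjusted p of 0.570 and 0.310. The points of these correlations share libraries, and 35 genes exceeded 0.95. Within the set, PEPC and the small subunit locus Zm00001d052595 followed the mean profile most closely, at 0.977 and 0.957, and NADP-MDH the least, at 0.763, where each gene is itself part of that mean.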

How the data were processed

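Stranded polyadenylated RNA libraries of 3 Fdl1-/- and 3 wild-type seedling samples were used, with groups and replicate numbers from the sample titles. The deposited tables are RSEM gene output, per the file headers. They hold expected counts, in which shared reads are divided between genes, TPM scaled to length and library, FPKM (deposited, not used here) and other columns, the length and effective length. Per the submitters' processing notes, Bowtie2, RSEM, DESeq2, limma and the build B73 RefGen_v4 were named, and versions of these tools are not given in the sources used here. Replicates are biological, per the series design, with no further detail.

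Rounded expected counts were tested with edgeR 4.0.16 in R 4.3.3 (filterByExpr, minimum count 10 and total 15, TMM, two-sided quasi-likelihood test, no replicate block, all 6 libraries). Standard errors came from the fold change and its F statistic. Log-CPM used a prior count of 2. Alternatives were DESeq2 1.42.0, limma 3.58.1 (voom, and log2 TPM with pseudocounts of 1 and 0.1), other scalings and filters, length offsets, a replicate block and leaving out libraries. Expected counts were whole, within 0.005, in 6 of 6 libraries for NADP-MDH, in 1 for carbonic anhydrase and in 0 for the other 5 genes, which are uncertain where copies share reads. The floor of 3 counts covers counting error only.

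All 7 genes are named. Other IDs were taken by likeness to their mean profile, or from the nearest 2 rows each side. The genes and lists were chosen with earlier results of these data known. Lists of other photosynthesis genes, chlorophyll synthesis and markers of other tissues were set by symbol, and were not run because the reference table matched 0 of 43789 IDs. On data simulated for this comparison over 26098 genes, 29 of 100 genes changed 2-fold and 71 of 100 changed 4-fold were recovered.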

Additional observations from a re-analysis of the deposited data

How the results depend on the processing

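The count of called genes was 699 in edgeR, 1997 in DESeq2 and 122 with a replicate block, and 128 to 837 when 1 library was left out. Of the 7 C4 and small subunit genes, edgeR called 1, DESeq2 2 and the replicate block 0, and leaving out 1 library gave 0 to 1. Same-numbered libraries had correlations of deviations of -0.22, 0.13 and -0.18, so the numbers gave no sign of pairing. Fewer residual degrees of freedom remain under the block, and the causes of the other changes were not tested. The log2 fold change of NADP-MDH turned to 0.123 and 0.124 with limma on TPM (pseudocounts 1 and 0.1) and 0.119 with length offsets, which all correct for length, and spanned -0.27 to 0.19 in fits that each left out 1 library. In those fits the small subunit sum spanned -0.10 to 0.88, Zm00001d052595 -0.015 to 1.0 and Zm00001d004894 -0.28 to 0.65. The mesophyll to bundle sheath log2 ratio was -0.49 without the small subunit loci. PEPC, PPDK, carbonic anhydrase and PEPCK kept a log2 fold change above 0 under all 18 alternatives, and PEPC and PEPCK passed the threshold under none of them. Leaving out Fdl1-/- replicate 3 and wild-type replicate 1 together, and the summaries over the 7 genes without either library, were chosen after the data were seen. Carbonic anhydrase in wild type and PEPCK in most libraries rest on under 100 counts, which limits what their ratios can show.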
